A study of Mus musculus with 4 samples.

Results

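The transforming growth factor β (TGF-β) and activin ligands, their receptors, a binding protein and an induced matrix protein were followed across the cell classes of the mouse sciatic nerve. The 10 genes were found by row name among the 22716 genes listed over 4 single-cell libraries, and they comprise the ligands Tgfb1, Tgfb2, Tgfb3, Inhba and Inhbb, the receptors Tgfbr1, Tgfbr2 and Tgfbr3, the latent TGF-β binding protein Ltbp1 and the TGF-β induced protein Tgfbi. All mice were wildtype CD1. Nerves were dissociated and the cells were profiled by Drop-seq, which counts the 3′ ends of transcripts with unique molecular identifiers (UMIs). The 3 days post-injury (3 DPI) library came from the distal segment of adult nerve after resection, and the uninjured library from intact adult nerve. The neonatal nerve was prepared in separate ways, by fluorescence-activated cell sorting (FACS) of nucleated live cells at postnatal days 3 to 4, and with myelin removal beads at postnatal days 2 to 3. The 2 adult libraries were also prepared with myelin removal beads, which can take myelinating cells away with the debris. The distal end was tucked away at surgery to keep axons from regrowing, so the 3 DPI nerve is a model of the cut distal stump without regeneration. Each condition or preparation is 1 library, so there was no replicate error, no test was made, and a difference between conditions cannot be told apart from a difference between libraries.

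TGF-β ligands are secreted in a latent complex, which is tied to the matrix through proteins of the LTBP family and is released by integrins, proteases or matrix proteins. The active dimer binds the type II receptor encoded by Tgfbr2, which then phosphorylates the type I receptor encoded by Tgfbr1, and both signal through Smad proteins. Betaglycan, encoded by Tgfbr3, is a co-receptor that presents TGF-β2 and also binds inhibins. Inhba and Inhbb encode the β subunits of activins, which act through related receptors and are bound by follistatin. In injured nerve, TGF-β is known as a signal that acts on Schwann cells together with fibroblasts and macrophages.

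The promoters of 3 ligands are shown first because these ligands were highest in different cell classes at 3 DPI, namely macrophage-like, vascular smooth muscle or pericyte-like (VSM/pericyte-like) and dividing mesenchymal-like cells. Each run is the 250 bases before the transcript start in the RefSeq table for GRCm38.p6, written 5′ to 3′ along the gene, and capitals mark a CAGA box (CAGACA, a Smad binding element) or a TATA box (TATAAA).
Tgfb1, chr7:25686752-25687001, plus strand: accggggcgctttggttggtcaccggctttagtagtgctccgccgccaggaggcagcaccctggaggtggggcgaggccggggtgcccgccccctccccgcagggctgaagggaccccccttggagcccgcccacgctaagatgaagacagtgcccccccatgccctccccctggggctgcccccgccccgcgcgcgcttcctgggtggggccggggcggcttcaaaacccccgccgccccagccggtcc
Tgfb2, chr1:186705990-186706239, minus strand: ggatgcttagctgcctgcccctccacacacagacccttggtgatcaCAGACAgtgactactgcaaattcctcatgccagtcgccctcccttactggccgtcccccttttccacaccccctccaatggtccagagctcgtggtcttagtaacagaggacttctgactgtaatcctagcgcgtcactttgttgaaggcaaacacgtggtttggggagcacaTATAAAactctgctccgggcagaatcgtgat
Inhba, chr13:16011601-16011850, plus strand: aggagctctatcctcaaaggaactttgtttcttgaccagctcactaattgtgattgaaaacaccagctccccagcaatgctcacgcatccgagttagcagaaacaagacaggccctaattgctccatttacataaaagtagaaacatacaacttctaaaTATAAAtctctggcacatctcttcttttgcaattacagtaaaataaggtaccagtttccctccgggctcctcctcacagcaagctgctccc

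The Tgfb1 window had 75.2% G and C and held none of the 3 motifs searched on both strands, which were the CAGA box, the TATA box and the AP-1 site TGANTCA. The Tgfb2 window had 53.6% G and C, with a CAGA box that began 204 bases before the start and a TATA box that began 31 bases before it. The Inhba window was the poorest in G and C of these 3, at 43.2%, and its TATA box began 91 bases before the start. Among 32851 windows of this length, 17.1% held the CAGA box, 12.4% the TATA box and 6.75% the AP-1 site, with a median of 52.4% G and C. Promoters were matched for 8 of the 10 genes, Tgfb3 and Tgfbr3 being named only. The AP-1 letters were found in 0 of the 10 windows of those 8 genes, which says only that they are not in these windows. In GRCm38, Tgfb1 spans chr7:25687002-25705077, Tgfb2 chr1:186622792-186705989 and Inhba chr13:16011851-16031621, and all 10 genes are protein-coding.

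Filtering kept 2162 cells at 3 DPI, 1837 from uninjured nerve, 2191 from the FACS and 5420 from the bead library, and the libraries held 4513814 to 8123103 UMIs. Cells were clustered without the 10 genes and without 48 other genes of the pathway, and clusters were named from marker genes, and each class name ends in “like” for that reason. All 124 checks of a lineage marker in a library found the marker at a higher level in its own lineage than in the rest. The same markers had named the clusters, so these checks are no separate test of the names. The libraries shared between 0 and 3 barcodes. Levels are UMIs of a gene as counts per 1000000 UMIs of the class (CPM), with exact Poisson 95% intervals. A ratio of levels is given with an exact 95% interval and was past the fold when it reached 2-fold in either direction with at least 20 UMIs over both groups. All intervals cover counting error only. Counts of 3′ ends depend on the gene, and levels were compared for 1 gene at a time. Free RNA in droplets can add UMIs to cells that do not make a transcript. The level it could give was estimated from the markers of the other lineages found in a class. The estimate can be too high, since for Inhba in endothelial-like cells it was 10.8 CPM at 3 DPI and 10.1 in the uninjured nerve where 0.988 and 0.753 were measured.

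Each library placed the genes in different cells, and mesenchymal-like classes were highest for some of them in every library. At 3 DPI, 6 of 10 genes were highest in a mesenchymal-like class, which made up 4 of 9 classes with at least 50 cells. The count was 4 of 9 genes in the uninjured nerve, where 3 of 6 classes were mesenchymal-like, 4 of 9 in the FACS library with 3 of 7 classes and 5 of 9 in the bead library with 3 of 6. The highest class, mesenchymal-like or not, was apart from the next for 6 genes at 3 DPI and 4 in the uninjured nerve. It was apart for 5 genes in the FACS and 5 in the bead library. These counts were not set beside the share over all genes, so they describe only the genes followed here. The UMIs behind these values ran at 3 DPI from 72 for Inhbb to 6974 for Tgfbi over all cells kept. Inhbb had 17 UMIs in the uninjured and 1 in the FACS cells and was not listed in the bead library.

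**Figure D1:**
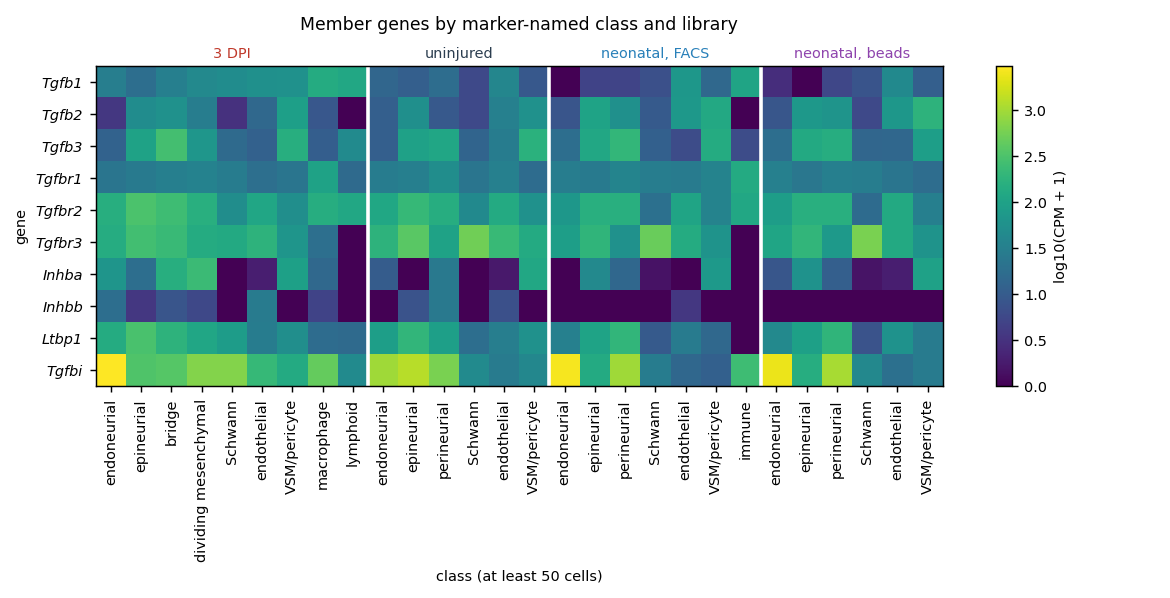
Each row is a gene and each column a cell class of at least 50 cells, grouped by library, with color for log10(CPM + 1). Tgfbi is brightest in endoneurial-like cells in every library but the uninjured one, where epineurial-like cells are brightest. Tgfbr3 is bright in Schwann-like cells outside the 3 DPI library, and Inhbb is dark in nearly all neonatal classes.

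Tgfb1, a ligand of immune and many other cells, was highest at 3 DPI in macrophage-like cells, among classes of at least 50 cells. Its level there was 138.5 CPM (interval 108 to 175), in a library where the Schwann-like cells had 47.6 CPM, the endothelial-like cells 54.3, the VSM/pericyte-like cells 55.6, the dividing mesenchymal-like cells 41.9, the bridge-like cells 31.2, the endoneurial-like cells 29.7 and the epineurial-like cells 16.8. Lymphoid-like cells, at 120 CPM (51.9 to 237), could not be set apart from the macrophage-like cells. The 40 neutrophil-like cells were left out of the order and had 182 CPM from 4 UMIs (49.6 to 466). In macrophage-like cells the level was 4.66 times that in endoneurial-like cells (3.16 times at the lower end of the interval), and the free RNA estimate was 3.19 CPM. In the uninjured nerve, Tgfb1 was 38.4 CPM in endothelial-like, 16.5 in perineurial-like, 13.2 in endoneurial-like, 10.3 in epineurial-like, 8.04 in VSM/pericyte-like and 4.81 in Schwann-like cells. The 19 uninjured immune-like cells were too few to be placed. In the neonatal nerve Tgfb1 was 105 CPM in immune-like and 67.5 in endothelial-like cells of the FACS library. In the bead library endothelial-like cells had 44.3 CPM and were the highest class of at least 50 cells, while the 38 immune-like cells had 126 CPM from 5 UMIs (41.0 to 295).

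Tgfb2, the isoform that needs betaglycan for strong receptor binding, was highest in VSM/pericyte-like cells in all 4 libraries. Those cells had 89.9 CPM at 3 DPI, 56.3 in the uninjured nerve, 123 in the FACS and 177 in the bead library. The class in the next place, bridge-like or epineurial-like cells, was apart from them only in the bead library, where epineurial-like cells had 69.6 CPM and the ratio was 2.54 (1.38 to 5.11). Within the mesenchymal-like cells at 3 DPI, Tgfb2 was 56.9 CPM in bridge-like, 47.8 in epineurial-like, 28.5 in dividing and 2.64 in endoneurial-like cells. Bridge-like cells had 21.5 times the endoneurial-like level, a gap that rests on 4 UMIs in the endoneurial-like cells. Neonatal endothelial-like cells had 70.2 CPM by FACS and 67.4 with beads, against 31.6 in the uninjured and 13.8 in the 3 DPI nerve.

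Tgfb3 stood out in bridge-like cells, a 3 DPI cluster of 316 cells led by C1qtnf3, Dlk1 and Lrrc15 and named after the mesenchymal cells of the bridge between cut nerve ends. Tgfb3 itself was among the 10 genes with the largest fold in that cluster, although it had no part in the clustering. Its level was 272.5 CPM (242 to 305) there, 1.82 times (1.28 to 2.66) the 150 CPM of VSM/pericyte-like cells in the next place. Other mesenchymal-like cells at 3 DPI had 101 CPM (epineurial-like), 65.7 (dividing) and 11.2 (endoneurial-like), so that the bridge-like level was 2.70, 4.15 and 24.3 times theirs. In the other libraries the ligand was highest at the nerve sheath or around vessels. VSM/pericyte-like cells had 165 CPM and perineurial-like cells 115 in the uninjured nerve, and perineurial-like cells had 203 CPM in the FACS and 144 in the bead library. Among these libraries the highest class was apart from the next only by FACS (ratio 1.48, 1.03 to 2.16). The ratio was 1.43 (0.763 to 2.84) in the uninjured nerve and 1.13 (0.705 to 1.88) over epineurial-like cells in the bead library. The neonatal perineurial-like cluster was mixed, as given for Ltbp1 below. Schwann-like cells were low in all 4 libraries, between 10.6 and 15.1 CPM.

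Inhba, the subunit of activin A, was higher at 3 DPI than in the other libraries as a whole. Over all cells kept it was 83.5 CPM at 3 DPI against 10.8 in the uninjured, 11.4 in the FACS and 10.4 in the bead library, which gave ratios of 7.72 (5.68 to 10.7), 7.31 and 8.03. Of the 609 UMIs at 3 DPI, 299 were in dividing mesenchymal-like and 164 in bridge-like cells, classes named only in that library. The part of this difference in classes in the ratios was not tested. In the uninjured, FACS and bead libraries VSM/pericyte-like cells were the highest class, at 120.5, 74.0 and 96.8 CPM, and they had 94.2 CPM at 3 DPI. They were apart from the next class in the uninjured nerve (ratio 4.88, 1.52 to 25.0). Epineurial-like cells, next in the FACS and bead libraries, were not set apart (1.76, 0.916 to 3.39, and 1.67, 0.832 to 3.70). At 3 DPI the highest class was a cluster of 163 mesenchymal-like cells, called dividing here, with 237 CPM (210.5 to 265). Its leading genes were Serpinb2 and Il1rl1, followed by cell-cycle genes such as Top2a and Mki67. Bridge-like cells had 150.5 CPM, endoneurial-like cells 64.1 and epineurial-like cells 16.8. The dividing cells were thus 1.57 times (1.30 to 1.91) the bridge-like and 3.69 times the endoneurial-like level. Schwann-like cells had 0 UMIs of Inhba at 3 DPI and in the uninjured nerve, which allows a share of cells with a UMI of up to 2.13% and 0.836%. The free RNA estimate for them was 8.67 CPM at 3 DPI.

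Inhbb, the subunit of activin B, was rare and found mainly in endothelial-like and endoneurial-like cells at 3 DPI, at 26.7 and 17.2 CPM. The difference between these classes was within the counting interval (ratio 1.55, 0.872 to 2.77). The uninjured nerve had 24.7 CPM in perineurial-like cells from 3 UMIs, 6.89 in epineurial-like and 6.02 in endothelial-like cells, and 0 UMIs in the other classes of at least 50 cells.

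**Figure D2:**
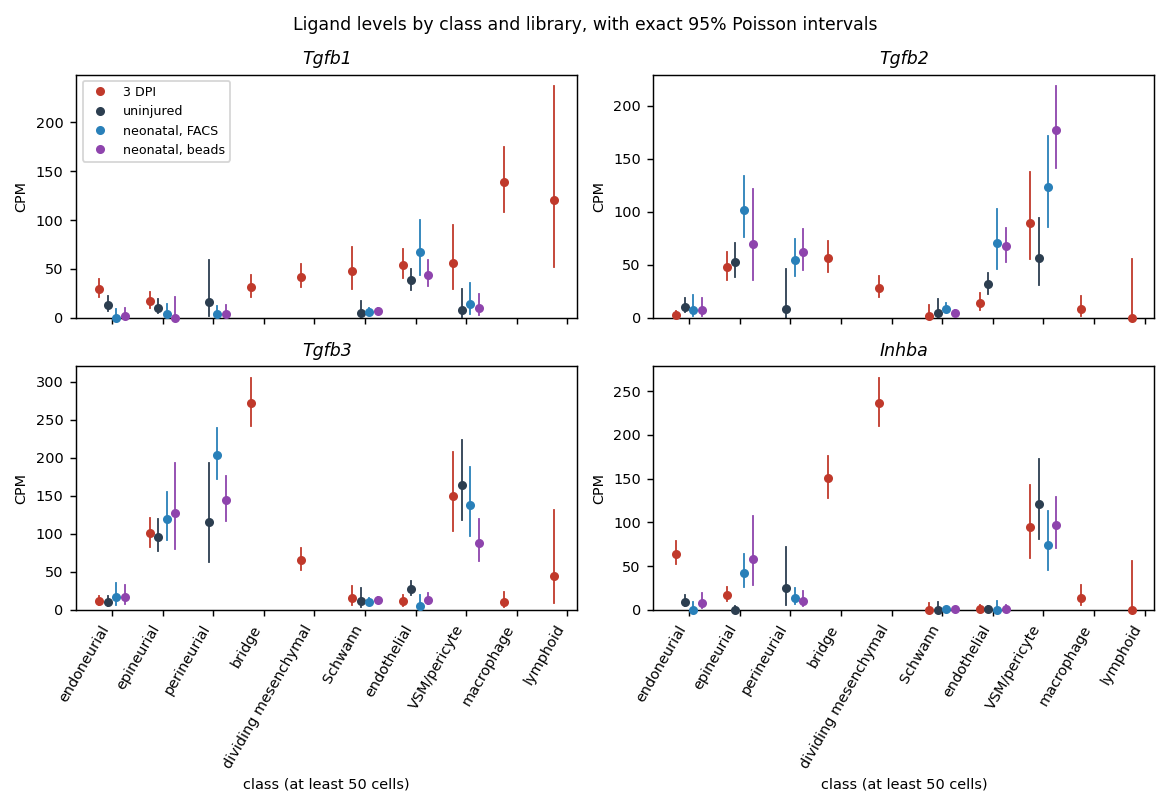
Levels of 4 ligands in CPM on the vertical axes are plotted by cell class, with a point for each library and lines for exact 95% Poisson intervals. Tgfb3 reaches 272.5 CPM in bridge-like and Inhba 237 CPM in dividing mesenchymal-like cells at 3 DPI, while in VSM/pericyte-like cells the adult libraries are close (150 and 165 CPM for Tgfb3, 94.2 and 120.5 for Inhba).

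Tgfbr1, the type I receptor, was even across most classes. Among classes of at least 50 cells at 3 DPI, it ran from 15.0 CPM in lymphoid-like cells (1 UMI) to 34.0 in dividing mesenchymal-like cells. Macrophage-like cells alone were above them at 101 CPM, 2.97 times (1.94 to 4.56) the next class. The 40 neutrophil-like cells had 45.5 CPM from 1 UMI (1.15 to 254). Immune-like cells were also highest in the FACS library, at 133 CPM. In uninjured classes of at least 50 cells the levels lay between 16.1 and 49.4 CPM. Of these, perineurial-like cells were highest and could not be set apart from the next class (ratio 1.56, 0.543 to 3.70). The 19 uninjured immune-like cells, too few to be placed, had 147 CPM from 3 UMIs (30.3 to 429).

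Tgfbr2, the type II receptor, was highest in epineurial-like cells of both adult libraries, with 313 CPM at 3 DPI and 210 in the uninjured nerve. Bridge-like cells followed at 3 DPI with 253 CPM, then dividing mesenchymal-like (156), endoneurial-like (152), macrophage-like (144), lymphoid-like (120), endothelial-like (113), VSM/pericyte-like (51.4) and Schwann-like cells (49.8). Among classes of at least 50 cells, Schwann-like cells had the lowest value in all 4 libraries, with 43.3 CPM in the uninjured, 18.0 in the FACS and 15.6 in the bead library. In the adult libraries the VSM/pericyte-like levels, 51.4 and 56.3 CPM, lay inside the intervals of the Schwann-like levels (31.5 to 74.7 and 25.7 to 68.5). The epineurial-like cells fell into a Pi16 and a Comp cluster, named by a leading marker. The Pi16 cells had more of the receptor in both adult libraries, 434 against 180 CPM at 3 DPI and 363 against 171 CPM in the uninjured nerve.

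Tgfbr3 was highest in Schwann-like cells outside the 3 DPI library, but was not particular to them. Schwann-like cells had 537 CPM in the uninjured, 479 in the FACS and 606 in the bead library. These levels were 1.38, 2.55 and 3.16 times those of the epineurial-like cells in the next place. Within the uninjured epineurial-like cells, Pi16 cells had 584.5 CPM (477 to 709) and Comp cells 338. The Pi16 level lay inside the interval of the uninjured Schwann-like cells (469 to 612). At 3 DPI the Schwann-like cells had 130 CPM (99.1 to 167), and 5 classes were above them, led by epineurial-like cells at 267.5 CPM. Of these, endoneurial-like (139) and dividing mesenchymal-like cells (138) lay inside the Schwann-like interval. The level also followed the state of the Schwann-like cells. Uninjured non-myelinating cells had 646 CPM and myelinating cells 204, a ratio of 0.316 for myelinating over non-myelinating cells. In the FACS library the order was 708 CPM in cells with no further state, 619 in proliferating, 369 in 28 premyelinating and 128 in myelinating cells. The bead library had 718, 518, 425 and, in 34 myelinating cells, 106 CPM. The clusters behind these states differed between preparations. Of the 589 FACS cells with no further state, 461 were in a cluster led by Pmel and Dct that held 20 bead cells, whereas 1684 and 683 bead cells were in 2 clusters led by Car3 and by Fos and other early response genes. The premyelinating and myelinating clusters also came mostly from 1 preparation each, so preparation and cluster cannot be told apart in these values. The 3 DPI level thus lay near those of the myelinating cells and below those of every other state.

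The share of Schwann-like cells with a Tgfbr3 UMI was 29.8% at 3 DPI, 36.2% in the uninjured, 39.7% in the FACS and 41.1% in the bead library. With every cell thinned to 500 UMIs and shallower cells left out, the shares were 7.87%, 20.5%, 20.6% and 24.8%. For comparison, macrophage-like cells at 3 DPI had a UMI in 2.28% of 394 cells at a median of 967 UMIs, or 0.292% after thinning, and the median was 1966 in the 3 DPI Schwann-like cells. Immune-like cells of the FACS library had a UMI in 0 of 80 cells, which allows a share of up to 3.75%.

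**Figure D3:**
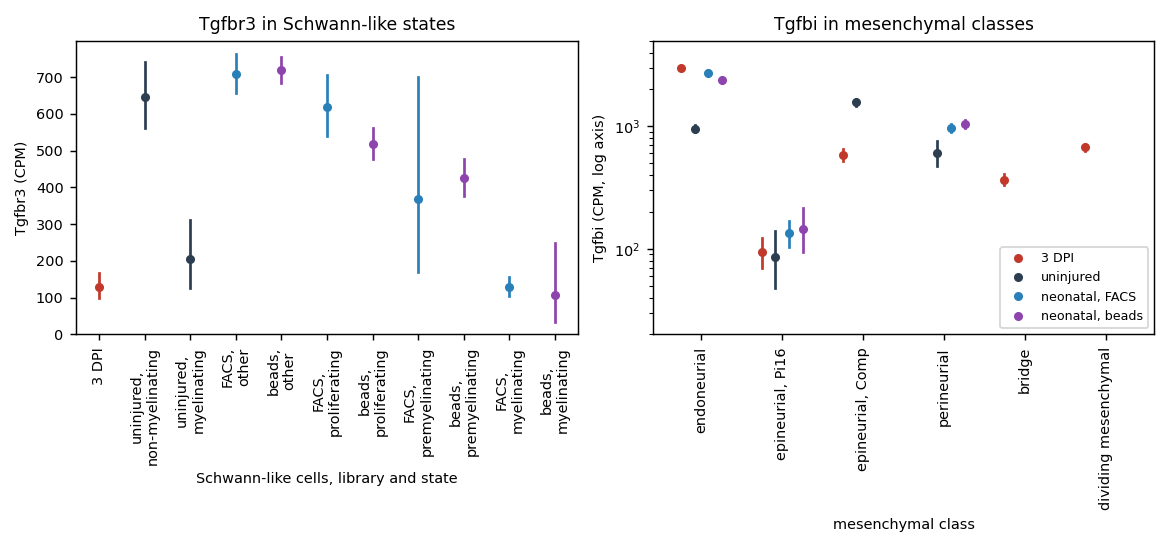
Points are levels in CPM with exact 95% Poisson intervals, for Tgfbr3 by library and state of Schwann-like cells on the left and for Tgfbi by mesenchymal-like class on a log axis on the right. Tgfbr3 is 130 CPM at 3 DPI against 646 CPM in uninjured non-myelinating cells, and Tgfbi is under 150 CPM in the Pi16 cells of every library.

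Ltbp1, which anchors latent TGF-β in the matrix, was highest in epineurial-like cells of the adult nerve and in perineurial-like cells of the neonatal nerve. Epineurial-like cells had 305 CPM at 3 DPI and 194 in the uninjured nerve, and perineurial-like cells had 195 and 187 CPM in the FACS and bead libraries. The neonatal perineurial-like cluster was mixed, since it split into perineurial-like and epineurial-like cells at a finer clustering. Pi16 cells had 407 CPM against 193 in Comp cells at 3 DPI, and 414 against 138 CPM in the uninjured nerve, ratios of 2.11 and 3.00.

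Tgfbi encodes a secreted matrix protein that was first cloned as a transcript induced by TGF-β. Endoneurial-like cells had 3012 CPM at 3 DPI, 956 in the uninjured, 2715 in the FACS and 2408 in the bead library, and were the highest class in all but the uninjured nerve. There, epineurial-like cells led with 1268 CPM, and the Comp cells had 1568 CPM against 85.1 in the Pi16 cells. The Pi16 cells were low in every library, at 93.3 CPM at 3 DPI, 134 in the FACS and 145 in the bead library. At 3 DPI the Schwann-like cells, with 684 CPM, came next after the endoneurial-like cells, followed by dividing mesenchymal-like (672), macrophage-like (449), bridge-like (367), epineurial-like (327), endothelial-like (212) and VSM/pericyte-like cells (133). The free RNA estimate was 95.3 CPM in the Schwann-like, 83.1 in the macrophage-like, 78.0 in the endothelial-like and 112 in the VSM/pericyte-like cells. The VSM/pericyte-like level was close to this estimate, which can be too high, and the Schwann-like level was above it. In the uninjured nerve, 45.7 CPM in Schwann-like, 27.1 in endothelial-like and 40.2 in VSM/pericyte-like cells stood beside free RNA estimates of 38.9, 24.4 and 28.8 CPM.

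The first comparison asked how these genes differed in endoneurial-like cells, the mesenchymal cells that lie among the axons, between 3 DPI and uninjured nerve. The activin subunits and Tgfbi were higher at 3 DPI, and the receptors were not past the fold. Inhba was 64.1 CPM at 3 DPI and 9.41 in the uninjured nerve (97 and 10 UMIs), a ratio of 6.82 (3.55 to 14.7). Inhbb had 26 UMIs at 3 DPI and 0 in the uninjured cells and was at least 6.09-fold higher, with the 0 set to a floor of 3 counts over the class. Tgfbi, at 3012 against 956 CPM, was 3.15-fold higher (2.94 to 3.38). Tgfb1, at 29.7 against 13.2 CPM, was 2.26-fold higher (1.22 to 4.46). In all, 4 of 9 members with enough UMIs were higher by 2-fold and 0 were lower, against 17.6% and 8.61% of 9603 genes. The median log2 ratio was 0.60 for the members and 0.23 for all genes. Below the fold, the ratio was 1.52 (1.18 to 1.96) for Ltbp1, 1.29 (1.04 to 1.62) for Tgfbr2, 0.784 (0.642 to 0.960) for Tgfbr3 and 0.773 for Tgfbr1. Tgfb2 had 4 and 11 UMIs and was too rare to be counted. The median depth of the class was 4350 UMIs per cell at 3 DPI and 2166 in the uninjured nerve. With every cell thinned to 500 UMIs, Tgfbi stayed past the fold, while Tgfb1, Inhba and Inhbb had too few UMIs to be counted. The part of this depth in the ratios of Tgfb1, Inhba and Inhbb was thus not tested.

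In epineurial-like cells, 1 gene was past the fold and it was lower. Tgfbi was 327 CPM at 3 DPI and 1268 in the uninjured nerve, 3.88-fold lower. None of 8 members was higher and 1 was lower, against 8.47% and 3.21% of 8972 genes, and the median log2 ratio was -0.04 for the members and 0.13 for all genes. The class held 260 Pi16 and 172 Comp cells at 3 DPI but 91 and 285 in the uninjured nerve. Within the Comp cells, Tgfbi was 582 CPM at 3 DPI and 1568 in the uninjured nerve, a ratio of 0.371 (0.327 to 0.421). Within the Pi16 cells it was 93.3 and 85.1 CPM, a ratio of 1.10 (0.610 to 2.09). The Comp cells, which had most of this transcript, were also a smaller share of the class at 3 DPI. Ratios of 1.49 for Tgfbr2 and 1.57 for Ltbp1 in the whole class were 1.05 and 1.40 within Comp cells, and Ltbp1 had a ratio of 0.983 within Pi16 cells. Tgfbr3 was not past the fold but was lower in the whole class, with a ratio of 0.690 (0.589 to 0.808). Within Comp cells Tgfbr3 was 178 CPM at 3 DPI and 338 in the uninjured nerve, and within Pi16 cells 349 and 584.5 CPM. Inhba had 19 UMIs at 3 DPI and 0 in the uninjured nerve, 1 UMI short of being counted, and was at least 4.89-fold higher.

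In Schwann-like cells the data showed more Tgfb1, Ltbp1 and Tgfbi and less Tgfbr3 at 3 DPI. Tgfbi was 684 CPM against 45.7 in the uninjured nerve, 15.0-fold higher (9.41 to 25.2). Ltbp1 was 82.2 against 16.9 CPM (38 and 7 UMIs), 4.88-fold higher (2.15 to 13.0). Tgfb1 was 47.6 against 4.81 CPM, with 22 UMIs in 15 cells at 3 DPI and 2 UMIs in the uninjured cells, a ratio of 9.89 (2.43 to 86.7). These 3 genes were above their estimated free RNA levels at 3 DPI, which were 95.3 CPM for Tgfbi, 13.4 for Ltbp1 and 4.49 for Tgfb1. Tgfbr3 was 130 CPM against 537, 4.14-fold lower, and its ratio was 0.201 (0.148 at the lower end) against non-myelinating and 0.635 (0.381 to 1.10) against myelinating uninjured cells. Of 6 members with enough UMIs, 3 were higher and 1 was lower, against 18.7% and 14% of 6985 genes. The median log2 ratio was 1.33 for the members and 0.14 for all genes. Tgfbr1 and Tgfbr2 had ratios of 1.30 (0.513 to 3.44) and 1.15 (0.593 to 2.26), and their counts of 9 to 23 UMIs could not show a smaller difference.

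Cells with a Tgfbi UMI were 56.0% of the 141 Schwann-like cells at 3 DPI (47.4 to 64.4, Clopper-Pearson) and 3.62% of 359 in the uninjured nerve (1.94 to 6.11). After thinning to 500 UMIs the shares were 25.2% and 1.46%. Lymphoid-like cells at 3 DPI, taken as a class that should make little of this matrix protein, had a UMI in 3.90% of 77 cells, or 1.79% after thinning. The other immune-like classes at 3 DPI had higher shares. Macrophage-like cells had a UMI in 34.8% of 394 cells, or 19.2% after thinning. Neutrophil-like cells had a UMI in 15% of 40 cells (5.71 to 29.8), or 18.75% of the 16 cells left after thinning. The median depth was 1966 UMIs in the 3 DPI and 983 in the uninjured Schwann-like cells. It was 731 in the lymphoid-like, 967 in the macrophage-like and 442 in the neutrophil-like cells.

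In endothelial-like cells the ligands went both ways. Inhbb was 26.7 CPM at 3 DPI and 6.02 in the uninjured nerve (27 and 8 UMIs), 4.43-fold higher (1.96 to 11.3), and Tgfbi, at 212 and 27.1 CPM, was 7.84-fold higher. Tgfb2 was 13.8 and 31.6 CPM, a ratio of 0.438 (0.221 to 0.818), and Tgfb3 was 10.9 and 27.8 CPM, a ratio of 0.390 (0.180 to 0.782). With doublets kept, Tgfb3 no longer passed the fold, with a log2 ratio of -0.78 against -1.36. Counts were 2 higher and 2 lower of 9 members, against 7.36% and 6.34% of 9680 genes, with a median log2 ratio of -0.24 for the members and 0.03 for all genes. Uninjured endothelial-like cells formed 3 clusters that differed in these ligands, while the 3 DPI cells formed 1. The cluster led by Slco1a4, a transporter of vessels with a barrier, had 61.1 CPM of Tgfb2 and 4.36 of Tgfb3. The cluster led by Selp, an adhesion molecule of veins, had 7.48 CPM of Tgfb2 and 59.8 of Tgfb3, and the cluster led by Ccl21a had 29.8 and 8.94. The part of this mixture of vessels in the ratios of Tgfb2 and Tgfb3 was not tested. The 3 DPI level of Tgfb3 was below the free RNA estimate of 12.9 CPM.

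In VSM/pericyte-like cells, Tgfbi was 3.30-fold higher (1.58 to 7.55), at 133 against 40.2 CPM, beside free RNA estimates of 112 and 28.8 CPM. Tgfbr3 was 64.2 against 133 CPM, a ratio of 0.484 (0.244 to 0.917). This made 1 higher and 1 lower of 7 members, against 13.5% and 10.8% of 4393 genes, with medians of -0.13 and 0.09. Tgfb1 had 13 UMIs at 3 DPI and 2 in the uninjured nerve (ratio 6.92, 1.57 to 63.2) and was too rare to be counted. Tgfb3 and Inhba, for which this class was prominent, had ratios of 0.909 (0.562 to 1.46) and 0.781 (0.429 to 1.40).

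**Figure D4:**
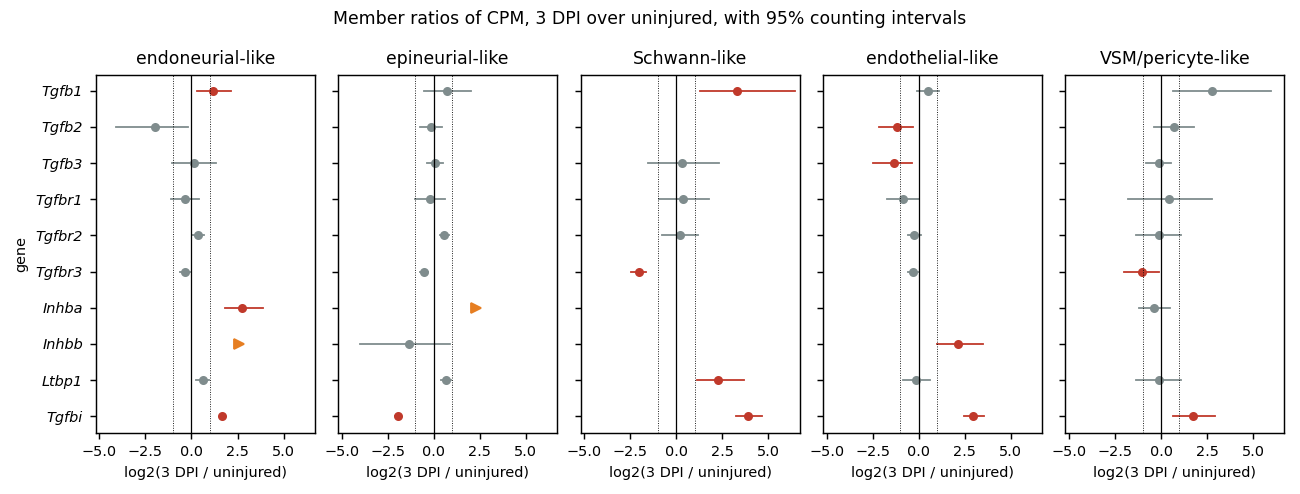
Points are log2 ratios of CPM, 3 DPI over uninjured, for each gene in 5 classes, with lines for 95% counting intervals. Red marks ratios past 2-fold (dotted lines), grey those within it or with fewer than 20 UMIs, and orange triangles lower bounds where the uninjured class had 0 UMIs. Tgfbi lies right of the 2-fold line in 4 classes and left of it in epineurial-like cells.

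The 3 DPI cells were also compared with neonatal cells, to ask whether levels after injury were those of the developing nerve. A gene was counted only when it was past the fold against both the FACS and the bead library. Injury and age cannot be told apart in these comparisons, nor can either be told apart from the sort in the FACS library. Schwann-like cells at 3 DPI again had more Tgfb1 (7.94-fold against FACS and 6.77-fold against beads), Ltbp1 (9.38 and 12.1), Tgfbi (24.3 and 16.6) and, here, Tgfbr2 (2.77 and 3.20), and less Tgfbr3 (ratios of 0.271 and 0.214). Tgfb2 was also past the fold in the lower direction, at 0.247 and 0.454, but this rests on 1 UMI at 3 DPI and both intervals included equal levels. The Tgfbr2 levels were 49.8 CPM at 3 DPI, 18.0 by FACS and 15.6 with beads, beside free RNA estimates of 18.2, 3.53 and 3.97 CPM. The part of free RNA in the Tgfbr2 ratios was not tested. Of 8 members, 4 were higher and 2 lower against both preparations, where 8.41% and 9.87% of 9761 genes were. The median log2 ratio was 0.99 against FACS and 0.95 against beads for the members, and -0.01 and -0.06 for all genes. Tgfbr1 had ratios of 0.984 (0.496 to 1.81) and 0.974 (0.504 to 1.73).

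In endoneurial-like cells, Tgfb1, Inhba, Inhbb and Ltbp1 were higher at 3 DPI than in the neonatal nerve, and Tgfb3 and Tgfbi did not pass the fold. Tgfb1 had 45 UMIs at 3 DPI, 0 in the FACS and 1 in the bead library, which made it at least 4.10-fold higher against FACS and 15.9-fold (2.71 to 641) against beads. Inhba was at least 8.84-fold higher against FACS and 8.56-fold (3.24 to 32.0) against beads. Inhbb, with 26 UMIs at 3 DPI and 0 in both preparations, was at least 2.37-fold and 3.06-fold higher. Ltbp1 was 136 CPM against 31.4 and 43.1, or 4.31-fold and 3.15-fold higher. These were the 4 of 9 members higher against both preparations, with 0 lower, where 10.4% and 4.98% of 8778 genes were. The median log2 ratio was 1.17 and 0.85 for the members and 0.05 and 0.03 for all genes. Tgfbr2 passed the fold against FACS (2.25, 1.51 to 3.45) and not against beads (1.80, 1.31 to 2.54). Tgfb3 had ratios of 0.664 (0.262 to 1.89) and 0.667 (0.281 to 1.70), from 17 UMIs at 3 DPI and 7 and 9 in the neonatal libraries. Tgfbi was close to its neonatal level, with ratios of 1.11 (1.04 to 1.19) and 1.25 (1.18 to 1.33). Both comparisons share the 3 DPI cells.

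The other genes of the pathway were taken from a list of 48, made up of 5 further ligands, 7 receptors, 11 genes of latency and activation, 3 extracellular inhibitors, 11 Smads and regulators and 11 target genes. The list was drawn up with earlier results of these data known. Endoneurial-like cells had 38 of the 48 with enough UMIs, of which 15 were higher at 3 DPI than in the uninjured nerve and 4 were lower, where 17.6% and 8.61% of all genes were. The median log2 ratio was 0.67 for the list and 0.23 for all genes. Schwann-like cells had 30, of which 15 were higher and 4 lower, where 18.7% and 14% of all genes were, with medians of 0.90 for the list and 0.14 for all genes. In epineurial-like cells 5 were higher and 2 lower of 37, against 8.47% and 3.21% of all genes, with medians of 0.45 and 0.13. In endothelial-like cells 12 were higher and 6 lower of 39, against 7.36% and 6.34%, with medians of 0.49 and 0.03. In VSM/pericyte-like cells 11 were higher and 2 lower of 22, against 13.5% and 10.8%, with medians of 0.93 and 0.09. Against both neonatal preparations, 14 were higher and 3 lower of 29 in Schwann-like cells, where 8.41% and 9.87% of all genes were. In endoneurial-like cells 14 were higher and 2 lower of 36, against 10.4% and 4.98%. The medians against FACS and beads were 1.19 and 0.78 in Schwann-like and 0.95 and 0.78 in endoneurial-like cells, beside -0.01 and -0.06, and 0.05 and 0.03, for all genes.

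In endoneurial-like cells, 4 of 8 genes of latency and activation with enough UMIs were higher at 3 DPI and 1 was lower. Lrrc32, which holds latent TGF-β at the cell surface, was 85.9 against 18.8 CPM (4.57-fold, 2.84 to 7.72). Itgav, the α subunit of the integrins that free it, was 3.07-fold higher, and the matrix genes Emilin1 and Fbn1 were 4.08-fold and 2.08-fold higher. Ltbp4, a relative of Ltbp1, went the other way with a ratio of 0.373, as did the activin inhibitor Fst with a ratio of 0.351, while its relative Fstl1 was 3.50-fold higher. Among the regulators, Skil, Tgif1, Pmepa1 and Smad7 were higher, by 5.23-fold, 3.98-fold, 9.13-fold and 2.25-fold, the last with an interval that included equal levels (0.787 to 7.85). All 4 are known as brakes of Smad signaling. Target genes were higher in 6 cases and lower in 2 of 11. Ctgf was 42.9-fold higher (21.6 to 100), Timp1 124.5-fold, Lox 13.7-fold, Fn1 4.66-fold and Postn 2.41-fold, and Tnc had 0 UMIs in the uninjured cells and was at least 64.6-fold higher. Col3a1 and Junb had ratios of 0.454 and 0.166.

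Schwann-like cells shared several of these genes and differed in others. Pmepa1 was 361 against 33.7 CPM (10.7-fold), Skil was 7.19-fold and Tgif1 2.88-fold higher. The ubiquitin ligases Smurf1 and Smurf2, which act on Smads and receptors, had ratios of 2.07 (0.946 to 4.87) and 3.03 (1.34 to 7.73). Itgb8, the partner of Itgav in an integrin that frees TGF-β, was 840 against 373 CPM, 2.25-fold higher. Ltbp3 was 5.06-fold, Acvr1 3.21-fold and Fstl3 2.25-fold higher. Tnc had 0 UMIs in the uninjured cells and was at least 166-fold higher, Timp1 was 39.8-fold, Fn1 5.34-fold, Postn 4.13-fold and Cdkn2b 2.62-fold higher, and Lox was at least 6.89-fold higher. Fst, Bambi, a pseudoreceptor that blocks signaling, Cdkn1a and Junb had ratios of 0.219, 0.0999, 0.213 and 0.0461. Timp1, Tnc, Fn1, Lox, Postn, Skil, Tgif1 and Pmepa1 were higher by the fold in both classes, and Fst and Junb lower. Several of these were not limited to the 2 classes: Timp1 and Tnc were higher and Junb lower in all 5 classes compared, and Fn1 and Postn were higher in 4. The target genes respond to other signals too, and their levels do not measure TGF-β activity.

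**Figure D5:**
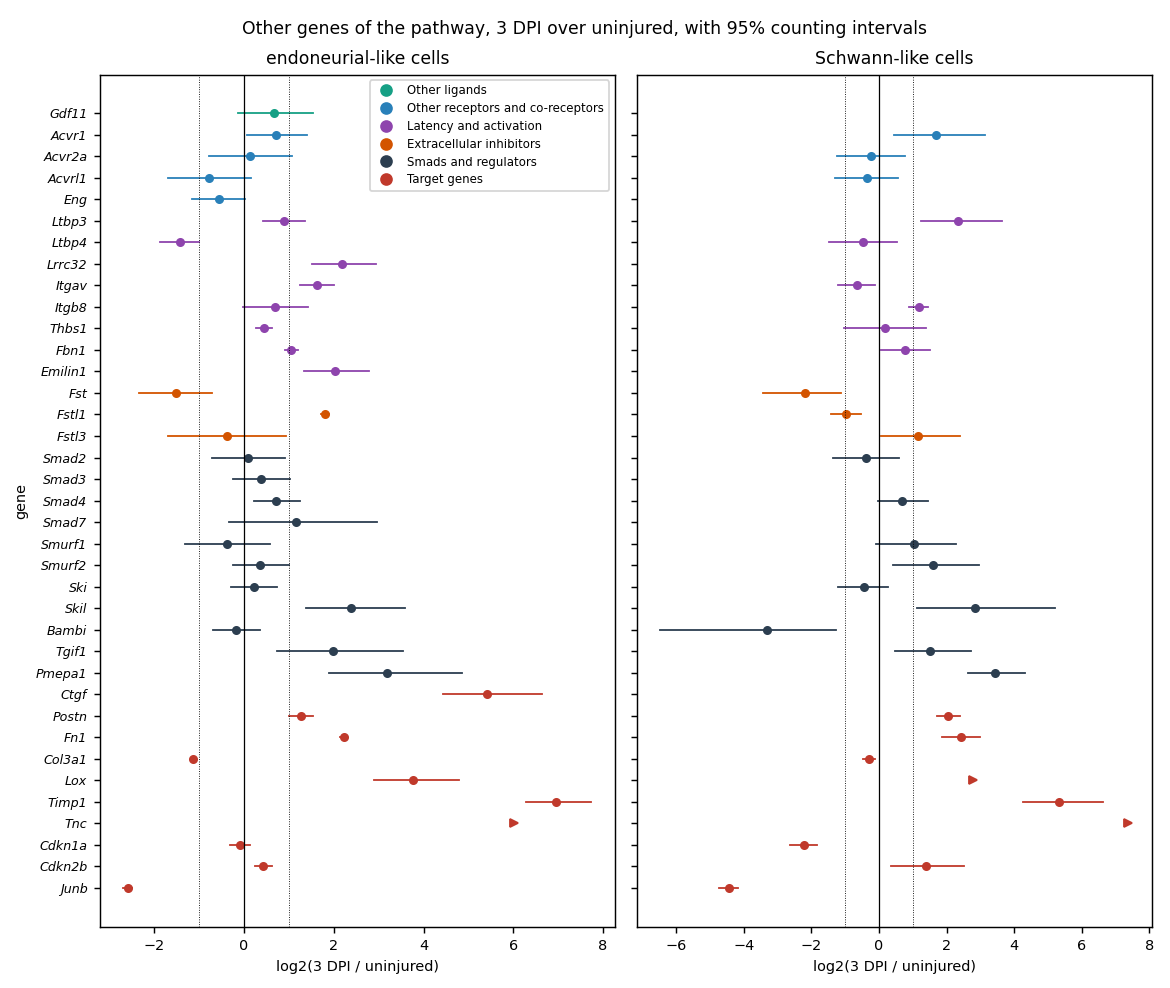
Points are log2 ratios of CPM, 3 DPI over uninjured, for genes of the pathway list with at least 20 UMIs except 1 target gene, in endoneurial-like cells on the left and Schwann-like cells on the right, colored by group, with 95% counting intervals and triangles for bounds. The target genes Timp1, Tnc, Fn1, Lox and Postn and the regulators Skil, Tgif1 and Pmepa1 lie right of the 2-fold line in both classes. Fst and Junb lie left of it in both.

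For each of the 10 genes, the 3 genes with the most similar levels were sought among 10394 genes over 28 points, each a class of at least 50 cells in 1 library. Points of a library share its depth and its free RNA, and the correlations are a description. Tgfb1 was closest to Ptbp3 (r = 0.94), Slfn2 and Actr3, Tgfb2 to Ebf3 (0.87), Eln and Aoc3, and Tgfb3 to Aspn (0.90), Ccdc3 and Fhl2. Inhba was closest to Ednra (0.78), Nfatc4 and Ptges3l, and Inhbb, with 90 UMIs in all cells kept, to Slco2a1 (0.74), Nt5e and Kng2. The receptors were closest to Dnase2a (0.89), Cfp and Ms4a7 for Tgfbr1, to Lbp (0.83), Igfbp4 and B4galt1 for Tgfbr2, and to Npdc1 (0.84), Trim2 and Lysmd2 for Tgfbr3. Ltbp1 was closest to Figf (0.85), Ltbp3 and Ndrg4, and Tgfbi to Thbs4 (0.88), Olfml3 and Col8a1.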

How the data were processed

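The authors made digital gene expression matrices with the Drop-seq steps of Macosko et al. and deposited raw counts of UMIs per gene and barcode for 4 libraries, without filtering. The submitters' processing notes name mm10 (GRCm38). The aligner's version and the gene annotation remain not given in the sources used here. Barcodes with fewer than 200 genes, over 10% mitochondrial or over 5% hemoglobin UMIs were removed, and then the 5% with the highest scrublet score (scanpy 1.11.5). This removed 97 to 285 barcodes as doublets. Counts were normalized with scran 1.30.0 and clustered in Seurat 5.3.0 at a resolution of 0.4 on 20 components of 2000 variable genes, the neonatal libraries together. Members and pathway genes were left out of the clustering. Rules for naming clusters were made with the clusters in view, and the members and lists were chosen with earlier results of these data known. UMIs were summed over each class and divided by its total (CPM). Ratios have exact conditional intervals and shares exact Clopper-Pearson intervals (scipy 1.17.1). A sum of 0 was set to 3 counts over the group. Named genes were all members, the 3 genes most correlated with each on log2(CPM + 10), with at least 200 UMIs, and pathway genes past 2-fold in endoneurial-like or Schwann-like cells. Genes named as markers were added after their values were seen, and 1 pathway gene, which is in the counts, is not reported here by itself. The interval code was tested on simulated data. Alternatives were doublets kept, at least 500 genes, a resolution of 0.8, library size scaling, cells assigned from their own markers, cells thinned to 500 UMIs, neonatal libraries clustered separately and a 3-fold limit.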

Additional observations from a re-analysis of the deposited data

Results flagged for a closer look

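Tgfbi was flagged because its level at 3 DPI over the uninjured nerve went in opposite directions in different classes. The ratio was 3.152 in endoneurial-like, 14.95 in Schwann-like, 7.841 in endothelial-like and 3.302 in VSM/pericyte-like cells, but 0.2577 in epineurial-like cells. The VSM/pericyte-like levels, 133 and 40.2 CPM, stood beside free RNA estimates of 112 and 28.8 CPM, which can be too high. Uninjured Schwann-like and endothelial-like cells had 45.7 and 27.1 CPM, beside estimates of 38.9 and 24.4 CPM. Within the epineurial-like class, Comp cells had 582 CPM at 3 DPI and 1568 in the uninjured nerve, and Pi16 cells 93.3 and 85.1 CPM. Each ratio compares 1 library with 1 library, and the difference between classes was not tested.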

How the results depend on the processing

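No paired analysis was possible because each condition has 1 library. Of 468 member ratios recomputed under the alternatives, 441 kept their direction and size, 25 moved and 2 reversed. Of 36 ratios past 2-fold, 12 stayed past it in every setting. Against the uninjured nerve these were Tgfbi in endoneurial-like, epineurial-like, Schwann-like and endothelial-like cells and Tgfbr3 in Schwann-like cells, and against the neonatal nerve Tgfbi, Tgfbr3 and Ltbp1 (both libraries) and Tgfbr2 (beads) in Schwann-like cells. With cells thinned to 500 UMIs, members past the fold were 1 (4 before) in endoneurial-like, 2 (4) in Schwann-like, 1 (4) in endothelial-like and 0 (2) in VSM/pericyte-like cells, and 3 (6) and 0 (4) for neonatal Schwann-like and endoneurial-like cells. Thinning also left only 4, 2, 3, 0, 4 and 3 members with 20 UMIs. With cells assigned from their own markers, the counts were 3 (1) in epineurial-like, 2 (4) in Schwann-like and 4 (2) in VSM/pericyte-like cells, and a resolution of 0.8 gave 2 (1) in epineurial-like cells. A 3-fold limit gave 2 (4) in endothelial-like and 1 (2) in VSM/pericyte-like cells. The log2 ratio of Tgfb2 between 3 DPI and bead Schwann-like cells turned to 0.35 with doublets kept, and that of Tgfbr2 between 3 DPI and FACS endoneurial-like cells to -0.34 after thinning. The cause was not tested beyond the fewer UMIs. The other counts of members past the fold or highest in mesenchymal-like cells stayed within 1.5 times their value. Depth limited how many members could be counted, as the thinned values show.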
